A study of Mus musculus with 11 samples.

Results

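The transcription factor p53 and the genes around it were followed in the cerebrum of aged Polg mutator mice. A panel of 40 genes was taken by symbol from the 36666 rows of the gene count table. It holds p53 itself (Trp53) with its regulators, targets that arrest the cell cycle or mark senescence, other p53 targets, and the apoptosis machinery from the BCL2 family to the caspases. Poly(A)+ RNA of a frozen cerebral hemisphere was sequenced from 11 male C57/Bl6 mice aged 1 year. The 7 Polg mutator mice were homozygous for the D257A knock-in (D257A/D257A), which removes the proofreading of the mitochondrial DNA polymerase in every cell. The 4 control littermates were 3 WT/WT mice and 1 heterozygote (WT/D257A, mouse 237), and no group received a treatment. All came from crosses of heterozygotes, so the mothers carried the mutation as well.

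In unstressed cells p53 protein is kept low by the ubiquitin ligase MDM2 and its partner MDM4. DNA damage and other stresses release it, largely by changes to the protein rather than to its mRNA, and it then switches on its targets. Some of these arrest the cell cycle, above all the kinase inhibitor p21 (Cdkn1a). Others, such as Bax and Puma (Bbc3), act at the mitochondrial outer membrane, where BCL2 proteins decide whether cytochrome c is released to the apoptosome and the caspases. The mutator mouse is known for early aging, and apoptosis has been described in it, in dividing tissues and in skeletal muscle. That is the background for looking at these genes in the cerebrum, a tissue made mostly of non-dividing cells.

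No gene of the panel differed between mutator and control mice at an adjusted p under 0.05. Of the 40 genes, 39 passed the filter on low counts, and 0 of them passed edgeR's quasi-likelihood test, beside 223 of 17983 genes tested in all (1.24%, with 0.439% higher and 0.801% lower in mutators). The changes were small: 20 of the 39 log2 fold changes were above 0 and 19 below (50.4% of all genes were above), and they ran from -0.22 (Endog) to 0.38 (Cdkn1a), with a median of 0.02 beside 0.00139 over all genes tested. The 95% interval lay within 1.5-fold in both directions for 35 of the 39 (89.7%, beside 77.9% of all genes) and within 2-fold for 39 of 39 (beside 91.8%). The 4 genes whose intervals reached beyond 1.5-fold were Cdkn1a, Fas, Eda2r and Pmaip1. For no gene of the panel were the CPM of the groups free of overlap (2.62% of all genes were). CPM are counts relative to the TMM-scaled total of each library throughout, and errors given with ± are SD over 4 control or 7 mutator mice.

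**Figure D1:**
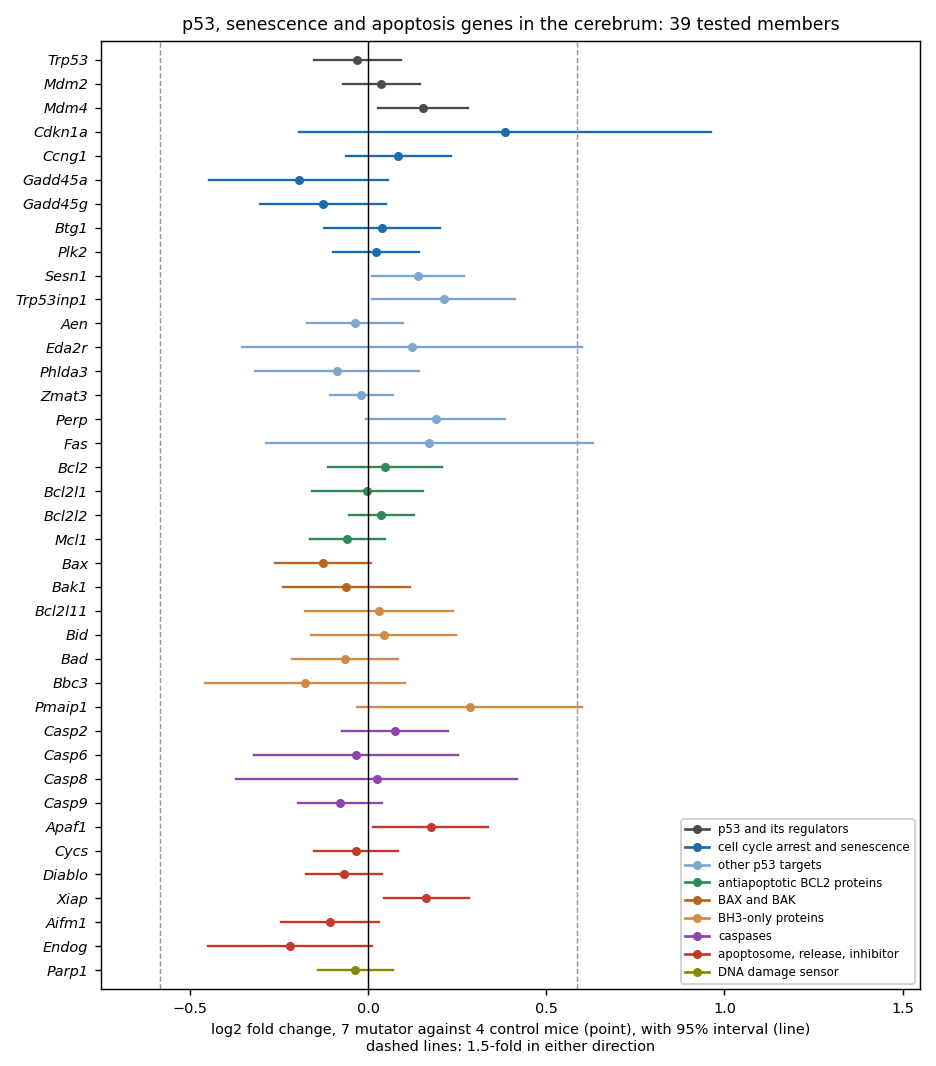
Log2 fold change of each of the 39 tested genes (point) with its 95% interval (line), 7 mutator against 4 control mice, coloured by role. The points lie between -0.22 and 0.38, 35 of the intervals stay between the dashed lines that mark 1.5-fold, and Cdkn1a has the widest interval.

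An unadjusted p under 0.05 was reached by 5 genes, and each was higher in the mutators: Xiap, Mdm4, Apaf1, Sesn1 and Trp53inp1. They are 12.8% of the 39 tested, and 15.8% of all genes did the same (7.18% higher and 8.58% lower). Their adjusted p-values in edgeR were 0.161 (Xiap) to 0.290 (Trp53inp1). DESeq2 called 0 of 40 as well, with 6 at an unadjusted p under 0.05, beside 3057 of 28093 genes in all. In edgeR with the 3 WT/WT controls only, without mouse 237, the number at an unadjusted p under 0.05 was 1 of 40 (beside 1792 of 18304 genes). It was 2 of 39 without control mouse 239 (beside 2627 of 18175) and 3 of 39 without control mouse 246 (beside 2175 of 18328). Without mutator mouse 249 it was 3 of 39 as well (beside 2898 of 18034). It was 6 of 39 without mutator mouse 207, 217 or 236 (beside 3173 of 17852, 2918 of 18026 and 2871 of 17992). Without mutator mouse 211 it was 7 of 39 (beside 2503 of 17994).

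The libraries held 28249345 to 121182250 gene counts in the controls and 37821243 to 91219204 in the mutators. The 11 libraries are separate mice. In a bulk sample of a hemisphere, fewer cells of a type and less RNA per cell cannot be told apart. Markers of neurons fixed for the check of the tissue summed to 5342 to 5789 CPM in the controls and 5195 to 5588 CPM in the mutators, and 5 of the 6 listed markers were found in the table, none at 0 in all mice. Polg was at 66.1 ± 2.98 CPM in the controls and 63.9 ± 4.18 CPM in the mutators (log2 fold change -0.05, SE 0.05, edgeR adjusted p = 0.707). The knock-in changes a codon and not the amount of mRNA, so this level does not check the labels.

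Levels were compared between genes per kilobase of exon, using the union of exons in GENCODE vM1 on NCBIM37 (mm9). Plk2, a kinase induced by p53 and by neuronal activity, stood highest with 57.1 ± 3.19 CPM per kb in the controls. Cycs, which encodes cytochrome c, and Bcl2l2, which encodes the antiapoptotic protein BCL-w, followed with 34.6 ± 2.96 and 32.9 ± 0.847 CPM per kb, within their spread of each other. Ccng1, a cyclin G target of p53, was at 24.1 ± 2.05 CPM per kb. Trp53 itself was at 4.96 ± 0.271 CPM per kb, between Endog (5.31 ± 0.575) and Btg1 (4.91 ± 0.390), neighbours that do not differ beyond their spread. The low end was formed by the death receptor Fas (1.04 ± 0.265 CPM per kb), the caspase of the death receptor pathway Casp8 (0.824 ± 0.198), Bcl2l11 (Bim, 0.816 ± 0.0667), the receptor Eda2r (0.104 ± 0.0337) and Cdkn2a (0.0998 ± 0.0391). The BH3-only genes and the initiator caspases were thus in the lower part of the order, apart from Bad (8.89 ± 0.852 CPM per kb) and Casp9 (6.32 ± 0.287 CPM per kb). The antiapoptotic genes lay far apart, with Bcl2l1 and Mcl1 at 19.3 ± 1.138 and 19.2 ± 1.40 CPM per kb and Bcl2 at 2.84 ± 0.151, near the BH3-only gene Bid (2.99 ± 0.192). The proapoptotic Bax, at 19.5 ± 1.84 CPM per kb, stood beside Bcl2l1.

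**Figure D2:**
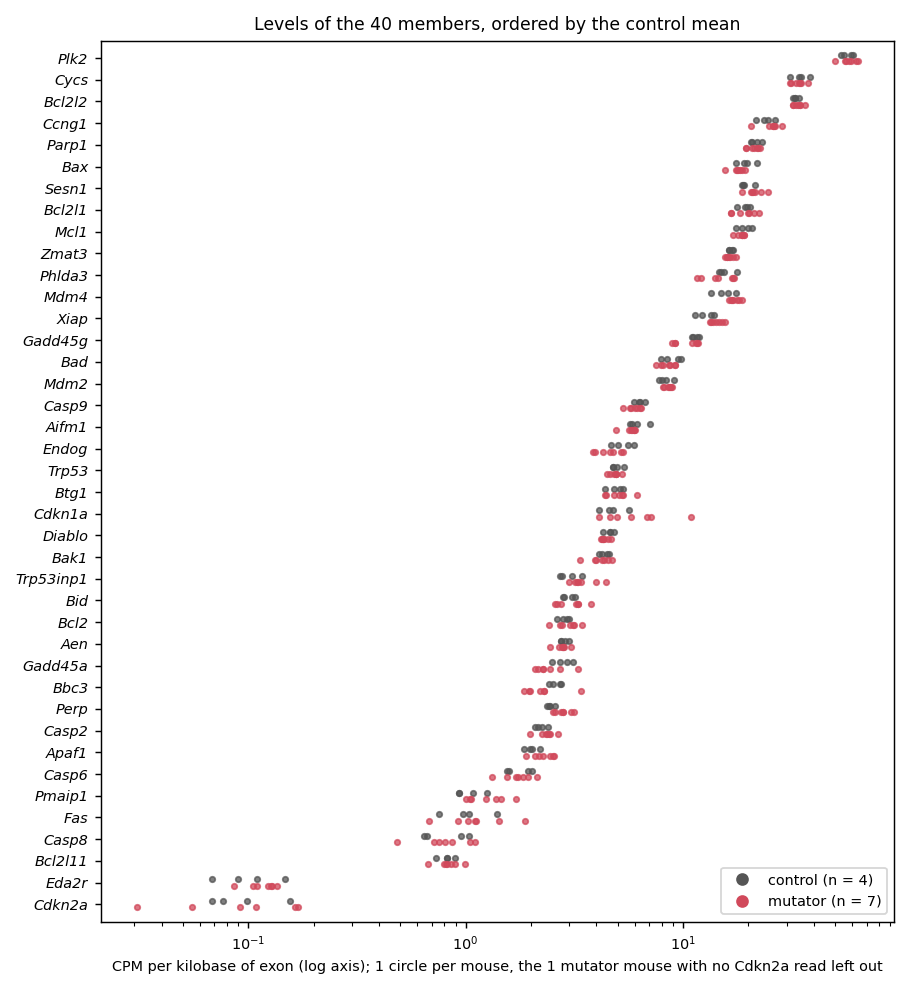
CPM per kilobase of exon on a log axis, 1 circle per mouse, for the 40 genes in the order of their control mean. Plk2 leads at 57.1 in the controls and Cdkn2a ends at 0.0998, and the ranges of both groups overlap in each row. Single mutator mice lie outside the controls in several rows, such as those of Cdkn1a, Fas, Pmaip1, Casp8 and Cdkn2a.

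The binding site of p53 is a pair of 10-base arms, and such elements were searched in RefSeq promoter windows of GRCm38.p6, from 250 bases before to 50 bases after each gene's start. A match was a pair of p53 consensus arms on either strand with the 4 core bases of each intact, at most 3 other bases off the consensus over the pair, and at most 10 bases between the arms. The motif reads the same on both strands, so a match on one is a match on the other. Of the 40 genes, 36 have a window, and 7 hold a match (19.4%, beside 6.28% of the 27025 genes in the table): Cdkn1a, Bax, Sesn1, Aen, Bbc3, Mdm4 and Trp53. With at most 1 base off, Cdkn1a alone remains of the 36 genes, as do 0.366% of all genes. The elements of Cdkn1a, Bax, Sesn1 and Mdm4 are shown because the results below turn on these genes. Capitals mark the arms, and the coordinates are those of the arms with the spacer between them.

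Cdkn1a, chr17:29090928-29090947, plus strand: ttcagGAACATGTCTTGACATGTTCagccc
Bax, chr7:45467079-45467099, minus strand: tcccAGGCAAGCTTtGAACTTGCGGcaat
Sesn1, chr10:41887253-41887275, plus strand: tggGCGCTTGGCCttcAAGCTTGTTTttg
Mdm4, chr1:133025626-133025650, minus strand: gcAAGCAAGGTAtgctgTGGCAAGCCTta

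The Cdkn1a match lies 51 to 32 bases before the start of this RefSeq transcript, has no spacer and is 1 base off the consensus. In GENCODE vM1 (mm9), transcripts of Cdkn1a start at separate first exons, at 29227924, 29230717 and 29235152. The distance given holds for 1 start and not for the others. Those of Bax and Sesn1 are 2 bases off, and that of Mdm4 is 3 bases off. Bax holds a further match that overlaps the one shown. A match is a description of letters in the window and not a bound site, and the windows of the other genes may lack an element that lies elsewhere, as the known elements of several p53 targets do.

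Trp53 was at 19.3, 21.6, 19.2 and 20.2 CPM in control mice 205, 237, 239 and 246. In the mutators it ran from 18.02 over a median of 19.9 to 21.2 CPM. The groups lay within each other, and the log2 fold change was -0.03 (SE 0.06, 95% interval -0.15 to 0.09, edgeR adjusted p = 0.850). Mdm2, both the main brake on p53 and its target, was at 46.1, 40.8, 39.5 and 42.3 CPM in the same controls. The mutators ran from 41.1 over 43.6 to 45.0 CPM, inside the range of the controls (log2 fold change 0.04, SE 0.05, edgeR adjusted p = 0.782). Its spread over the 7 mutators, a coefficient of variation (CV) of 3.61%, was below the median of 6.11% for genes of like level.

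Mdm4, which holds p53 inactive by binding its activation domain, was at 61.6, 52.5, 56.5 and 47.3 CPM in the controls. Mutators had 56.99, 59.7 and 65.3 CPM as lowest, median and highest value. The most deeply sequenced control, mouse 205, lay among the mutators, and the other 3 controls lay below the lowest mutator. The log2 fold change was 0.15 (SE 0.06, unadjusted p = 0.0199, edgeR adjusted p = 0.216). Without mouse 205 it was 0.22 with an adjusted p of 0.0592, and without control mouse 246 it was 0.10 with an adjusted p of 0.544.

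Of the 7 genes for cell cycle arrest and senescence, 6 were tested and 0 passed. Cdkn1a had the largest log2 fold change of the panel, 0.38, with the largest SE, 0.26 (95% interval -0.19 to 0.96, edgeR adjusted p = 0.516). Controls 205, 237, 239 and 246 were at 12.5, 10.5, 10.2 and 9.16 CPM. The mutators ran from 9.17 in mouse 248 over a median of 12.8 in mouse 211 to 24.1 in mouse 249. Mutators 207 and 236 were at 15.9 and 15.2 CPM, so 3 mutators lay clearly above the controls, mouse 211 just above them and the other 3 within their range. Without mouse 249 the log2 fold change was 0.21 (adjusted p = 0.534). The spread between mutator mice, a CV of 36.0%, was larger than that of 99.4% of 4210 genes of like level, whose median was 8.24%, while the CV over the controls was 13.3%.

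The damage-inducible Gadd45a and Gadd45g had log2 fold changes of -0.20 (SE 0.12) and -0.13 (SE 0.08). Ccng1, the antiproliferative Btg1 and Plk2 had values of 0.08 (SE 0.07), 0.04 (SE 0.08) and 0.02 (SE 0.06). Their edgeR adjusted p-values ran upward from 0.454 (Gadd45a).

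Cdkn2a encodes p16Ink4a and p19Arf, which arrest the cell cycle in senescent cells through the retinoblastoma protein and through MDM2. It did not pass edgeR's filter on low counts. The libraries held 11, 5, 5 and 5 reads in controls 205, 237, 239 and 246, and 0 to 15 reads with a median of 6 in the mutators. This gave 0.0801 to 0.182 CPM in the controls and 0 to 0.199 CPM in the mutators. The 0 of mutator mouse 240 allows up to 0.0447 CPM (3 reads of that library), a limit for counting error only. Without the filter, edgeR gave a log2 fold change of -0.098 with an SE of 0.59 (adjusted p = 0.966), and DESeq2 gave -0.12 with an SE of 0.67 and no adjusted p, so no difference in Cdkn2a was detectable at this depth. The gene lies on chromosome 4, chr4:88920377-88940557 on the minus strand (mm9), and its products start from separate first exons. Over the 10 mice with exon counts, the bin of the p16Ink4a first exon (88927890 to 88928096) held 2 reads in all, and the larger bin of the p19Arf first exon (88940238 to 88940523) held 19, of which 4 were in the 3 controls and 15 in the 7 mutators. These bins were placed by their order in GENCODE vM1, which gives the gene as many bins as the deposited file.

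**Figure D3:**
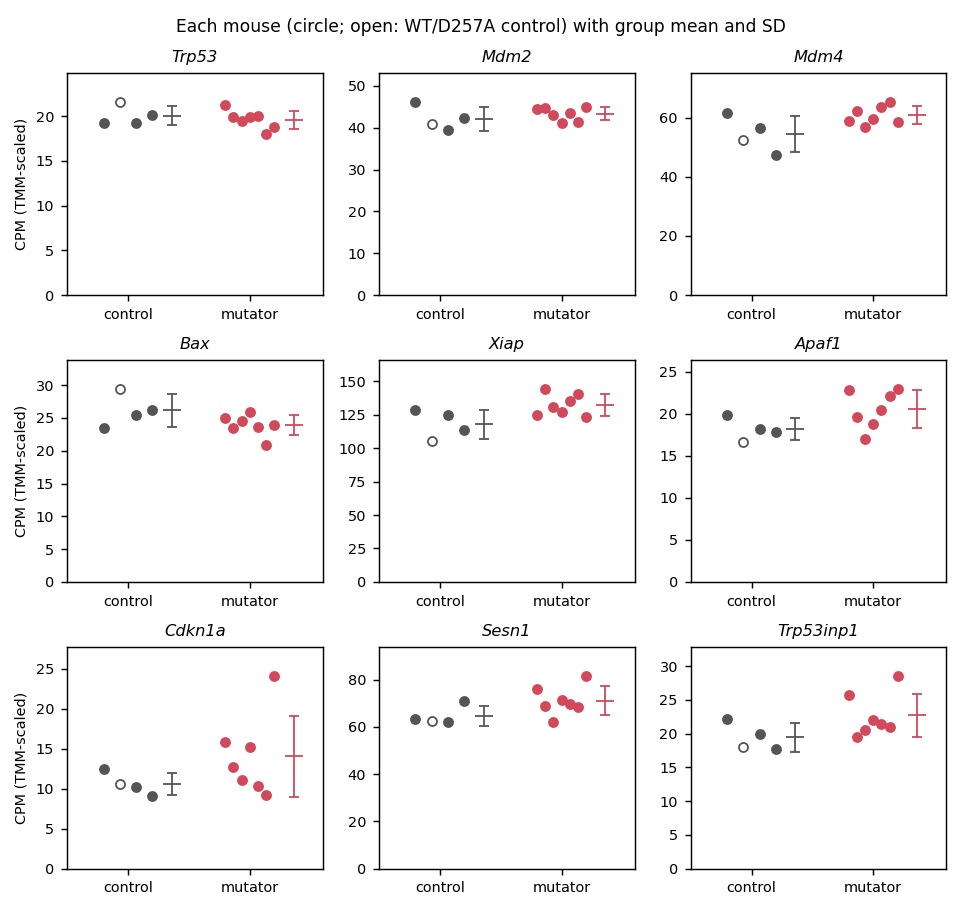
CPM of 9 genes in each mouse (circles, the WT/D257A control open), with group means and SD as bars, on axes that start at 0. The groups overlap in each panel, the open circle is the lowest control for Xiap and Apaf1 and the highest for Trp53 and Bax, and Cdkn1a has a single mutator at 24.1.

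The 8 other p53 targets included Sesn1 and Trp53inp1, the pair with unadjusted p-values under 0.05. Sesn1, a sestrin that curbs mTORC1 signalling under stress, was at 63.2, 62.5, 62.1 and 71.1 CPM in controls 205, 237, 239 and 246. The mutators ran from 62.0 over 69.8 to 81.6 CPM. All 4 controls lay within that range, mouse 246 above the median of the mutators and the others near its lower end. The log2 fold change was 0.14 (SE 0.06, unadjusted p = 0.0370, edgeR adjusted p = 0.279).

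Trp53inp1, a stress protein that promotes p53 activity and autophagy, was at 22.2, 17.98, 19.9 and 17.7 CPM in these controls. Mutators had 19.4, 21.4 and 28.5 CPM as lowest, median and highest value (log2 fold change 0.21, SE 0.10, unadjusted p = 0.0400, edgeR adjusted p = 0.290). The high values were those of mice 249 and 207, and the other 5 mutators lay within the range of the controls. Its CV over the mutators, 14.3%, was larger than that of 95.5% of genes of like level.

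Perp, a membrane protein of the p53 death response, had a log2 fold change of 0.19 (SE 0.09, adjusted p = 0.335). Fas had one of 0.17 (SE 0.22), which was 0.034 without mutator mouse 249, 0.055 without control mouse 237 and 0.31 without control mouse 246. The nuclease gene Aen, the AKT inhibitor Phlda3 and the RNA-binding protein gene Zmat3 had values between -0.09 and -0.02. Zmat3, with a CV of 1.99% in the controls and 4.14% in the mutators, had an SE of 0.04. Eda2r, at 0.610 ± 0.199 and 0.687 ± 0.103 CPM, had an SE of 0.23 and allows little to be said.

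The mutators with high Cdkn1a were looked at in other genes, a choice made after the values were seen. Mice 207, 236 and 249 were also the 3 highest mutators for 6 of the 38 other tested genes of the panel, Gadd45g, Sesn1, Trp53inp1, Perp, Fas and Bcl2l1 (15.8%, beside 4.82% of all genes). This is an order among the mutators and not a rise over the controls. For Gadd45g these mice, at 13.5 to 13.7 CPM, lay within the controls (12.9 to 13.97 CPM). Mouse 236 lay within the controls for Trp53inp1 and Fas, and mouse 207 for Bcl2l1. For Bbc3, mouse 207 was the highest of the 11 mice and mouse 249 the lowest. Mice 207, 236 and 249 were the 3 highest mutators for Igfbp3, a secreted senescence factor given below. They were the 3 highest as well for 4 of 6 glucocorticoid induced genes (Fkbp5, Sgk1, Tsc22d3 and Per1). Sgk1, a kinase induced by glucocorticoids, was at 76.5 to 98.5 CPM in the controls and at 169, 208 and 216 CPM in mice 207, 236 and 249, and the other 4 mutators were at 104 to 131 CPM. Fkbp5, a cochaperone of the glucocorticoid receptor, was at 37.5 to 40.5 CPM in the controls, at 67.1, 62.6 and 80.3 CPM in these 3 mice and at 35.5 to 54.5 CPM in the other 4. The summed level of the 6 listed glucocorticoid genes was 365 to 421 CPM in the controls and 413 to 682 CPM in the mutators, with 5 of 6 higher in the mutators, 3 of them at an unadjusted p under 0.05 and 0 called. The part of these levels in the Cdkn1a values was not tested.

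**Figure D4:**
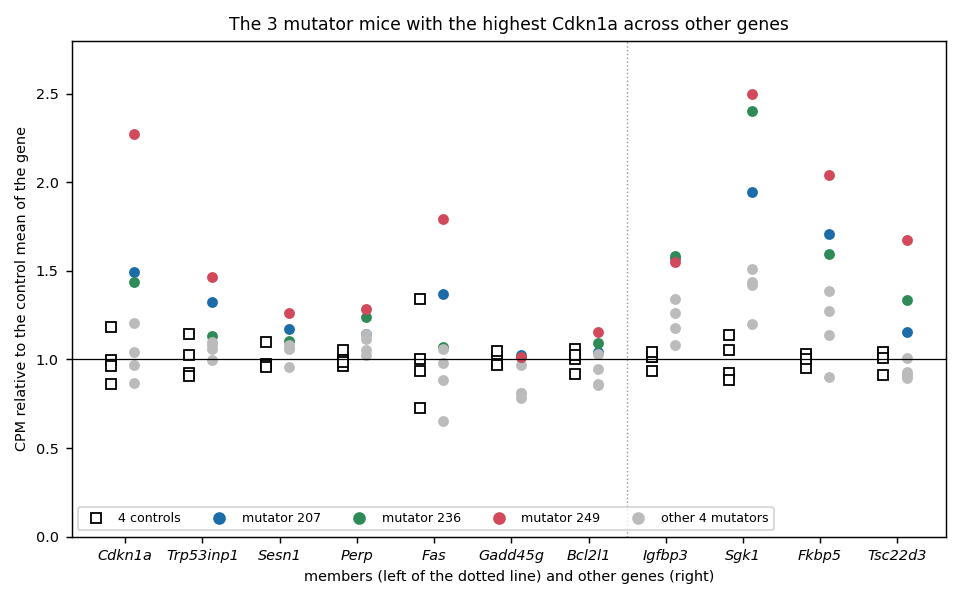
CPM of each mouse divided by the control mean of the gene, for Cdkn1a, the 6 genes of the panel in which the same mutators are the 3 highest, and 4 genes outside it. Mutators 207, 236 and 249 (coloured) lie above the other 4 mutators (grey) in each column by the way the genes were chosen, and the distance is small for Sesn1 and large for Sgk1.

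**Figure D5:**
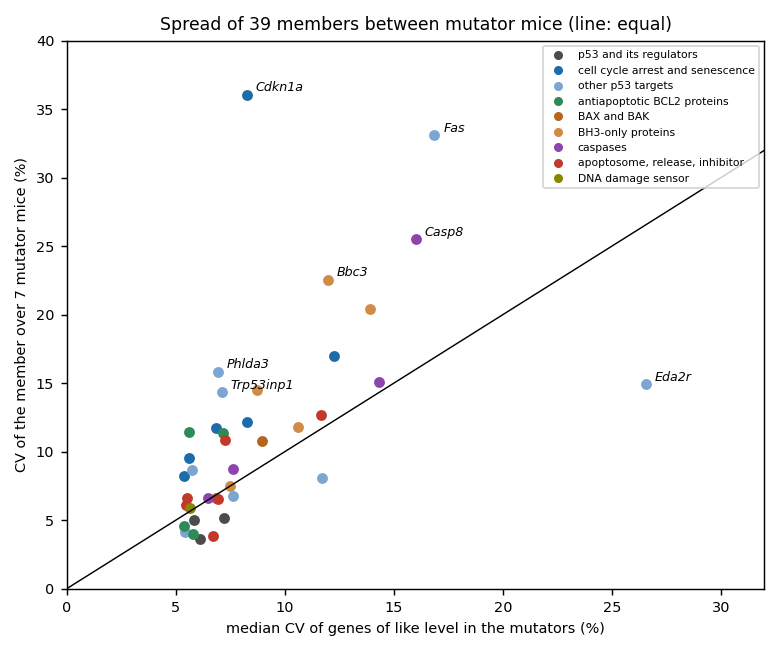
CV over the 7 mutator mice of each of the 39 tested genes against the median CV of genes of like level, in percent. Cdkn1a stands at 36.0% where genes of its level have 8.24%.

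The antiapoptotic genes Bcl2, Bcl2l1 (BCL-XL), Bcl2l2 and Mcl1 were close to the controls, with log2 fold changes from -0.06 (Mcl1, SE 0.05) to 0.05 (Bcl2, SE 0.08). Bcl2l2 was at 147 ± 3.78 CPM in the controls and 150.3 ± 6.83 CPM in the mutators. The sign of Bcl2l1, -0.0033 with an SE of 0.07, changed with the normalization.

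The membrane pore proteins BAX and BAK are the step at which the BCL2 family releases cytochrome c. Bax was at 23.5, 29.4, 25.4 and 26.2 CPM in controls 205, 237, 239 and 246. The mutators ran from 20.9 over 23.9 to 25.9 CPM. The heterozygous control was the highest of all mice and controls 205 and 239 lay among the mutators. The log2 fold change was -0.13 (SE 0.07, 95% interval -0.26 to 0.01, unadjusted p = 0.0658, edgeR adjusted p = 0.356). Without the heterozygous control it was -0.064 (adjusted p = 0.813), and without control 205 it was -0.18 (adjusted p = 0.162). Bak1 had a value of -0.06 (SE 0.09).

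The 5 BH3-only genes, whose products sense damage and set off BAX and BAK, ran from -0.18 (Bbc3, SE 0.13) to 0.28 (Pmaip1, SE 0.15). Pmaip1 (Noxa) was at 2.78 ± 0.402 CPM in the controls and 3.36 ± 0.688 CPM in the mutators (adjusted p = 0.373), and Bbc3 (Puma) at 5.23 ± 0.317 and 4.59 ± 1.03 CPM (adjusted p = 0.559). These targets of p53 thus had values of opposite sign, and neither passed the test. Bcl2l11, Bid and Bad had log2 fold changes of 0.03, 0.04 and -0.07, with SE of 0.10, 0.10 and 0.07.

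Among the caspases, the initiators Casp2, Casp8 and Casp9 had log2 fold changes of 0.07 (SE 0.07), 0.02 (SE 0.19) and -0.08 (SE 0.06). Casp6, an executioner linked to axon loss, had -0.03 (SE 0.14). The 4 summed to 51.9 to 55.8 CPM in the controls and 46.0 to 54.6 CPM in the mutators.

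Xiap, which binds and blocks caspases, had the lowest p-value of the panel. Controls 205, 237, 239 and 246 were at 129, 105, 125 and 113 CPM, and the mutators ran from 123 over 131 to 144 CPM. The heterozygous control was the lowest of all mice, controls 205 and 239 lay among the mutators, and mouse 246 lay below them. The log2 fold change was 0.16 (SE 0.06, 95% interval 0.04 to 0.28, unadjusted p = 0.00983, edgeR adjusted p = 0.161). With WT/WT controls only it was 0.11 (adjusted p = 0.543).

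Apaf1, the scaffold of the apoptosome, was at 19.9, 16.7, 18.2 and 17.8 CPM in the same controls. Mutators had 17.0, 20.4 and 23.0 CPM as lowest, median and highest value (log2 fold change 0.18, SE 0.08, unadjusted p = 0.0356, edgeR adjusted p = 0.275). Control 205 again lay in the midst of the mutators. The apoptosome scaffold and the caspase inhibitor thus had log2 fold changes of the same sign and of like size.

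The proteins that mitochondria release had values from -0.22 to -0.03. Cycs was at 118 ± 10.1 CPM in the controls and 115 ± 7.57 CPM in the mutators (log2 fold change -0.03, SE 0.06), and its processed pseudogenes can share reads with it. Diablo, an antagonist of XIAP, had -0.07 (SE 0.05), and the flavoprotein gene Aifm1 had -0.11 (SE 0.07). Endog, a mitochondrial nuclease, had the lowest value, -0.22 (SE 0.11, adjusted p = 0.344), with 5.65 ± 0.611 CPM in the controls and 4.85 ± 0.615 CPM in the mutators. Parp1, the sensor of DNA breaks that caspases cleave, was at 83.0 ± 4.30 and 80.9 ± 4.75 CPM (log2 fold change -0.04, SE 0.05).

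Some of these counts can hold reads of neighbours or lack reads of shared parts, since the options used for counting are not known here. In GENCODE vM1, 9 of the 40 genes share exonic bases with another gene, which is on the opposite strand for all of them apart from Bcl2l2. Aen is not among the 9, but the annotation of the deposited exon counts merges it with an overlapping gene, so the same limit holds for it. The shared part is 35.7% of the exonic bases of Endog, 25.8% of Bad, 21.5% of Diablo (with B3gnt4) and 19.1% of Gadd45a. The libraries did not keep the strand, so reads of the overlapping parts cannot be told apart.

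Exon usage was compared for the same genes in the 7 mutators and the 3 WT/WT controls, since exon counts of mouse 237 were not analysed here. Of 448 bins tested in 38 genes, 0 passed diffSpliceDGE at an adjusted p under 0.05, beside 48 of 206930 bins in all (0.0232%). An unadjusted p under 0.05 was reached by 14 of the 448 (3.12%, beside 1.91% of all bins). With limma's diffSplice 0 passed as well, with 19 at an unadjusted p under 0.05 (4.24%, beside 2.65% of all bins). The lowest p belonged to bin 11 of Aen, a group that the flattened annotation merges with an overlapping gene. It took 10.8% ± 0.805 of the counts of the group in the controls and 14.9% ± 0.822 in the mutators, with a log2 change of usage of 0.47 (adjusted p = 0.174) and shares that did not overlap.

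Bins 5, 6 and 7 of Xiap, near its 5′ end, had log2 changes of usage of -0.60, -0.36 and -0.39. Bin 5 (chrX:39421095-39421233, plus strand, mm9, placed by order as for Cdkn2a) held 1.20% ± 0.305 of the counts of Xiap in the controls and 0.785% ± 0.186 in the mutators (adjusted p = 0.649). Without control mouse 205, 1 of 449 panel bins passed, beside 189 of 209437 bins in all, against 48 in the main fit. It was bin 11 of Zmat3 (adjusted p = 0.0454), which lies in the first exon of that gene. In the main fit this bin had a log2 change of usage of -0.50 (diffSpliceDGE unadjusted p = 0.00258) and did not pass.

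Genes of the same pathways outside the panel were taken from lists. Of 29 tested p53 targets, 0 passed in edgeR and 14 of 29 had a log2 fold change above 0 (median -0.02), with 2 higher and 2 lower at an unadjusted p under 0.05. The pair with the lowest p-values were Fdxr (log2 fold change -0.23, adjusted p = 0.137) and Rrm2b (0.15, adjusted p = 0.183), which supplies nucleotides for mitochondrial DNA. Of 26 tested apoptosis genes, 0 passed, with 5 higher and 0 lower at an unadjusted p under 0.05. The lowest p-values were those of Bnip3, a mitochondrial BH3 protein that acts in mitophagy, and Birc2, an inhibitor of apoptosis protein. Bnip3 was at 98.0 to 104.7 CPM in the controls and 108.2 to 114.3 CPM in the mutators, without overlap (log2 fold change 0.12, SE 0.04, adjusted p = 0.127), and Birc2 had a value of 0.15 (adjusted p = 0.190). Of 16 genes that signal DNA damage to p53, 0 passed, with 1 higher and 1 lower at an unadjusted p under 0.05. These were Trp53bp1, which binds at DNA breaks (log2 fold change 0.10, adjusted p = 0.258), and the histone gene H2afx (-0.17, adjusted p = 0.252).

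Of 24 tested senescence genes, 1 was higher in the mutators and 0 were lower at an adjusted p under 0.05, with 5 higher and 4 lower at an unadjusted p under 0.05. The gene was Igfbp3, a secreted insulin-like growth factor binding protein. It was counted in this list and not among the listed p53 targets outside the panel, so the 0 of 29 given there does not cover it. Controls 205, 237, 239 and 246 were at 10.4, 10.4, 9.57 and 10.7 CPM, and the mutators ran from 11.1 over 13.8 to 16.2 CPM. The groups did not overlap (log2 fold change 0.45, SE 0.10, edgeR adjusted p = 0.0263). The call was lost with WT/WT controls only (adjusted p = 0.113) and without control 239 (0.0902), control 246 (0.0609) or mutator 236 (0.0506). E2f1, a transcription factor of the cell cycle, had the next lowest p-value of the list (log2 fold change -0.28, adjusted p = 0.0817). Abcc9, a pericyte marker, was higher in the mutators too, at 10.1 to 12.02 CPM in the controls and 14.9 to 19.8 CPM in the mutators (log2 fold change 0.64, adjusted p = 0.000433). Acta2, a smooth muscle actin of mural cells, had a log2 fold change of -0.53 (adjusted p = 0.0821). The summed level of the 6 listed pericyte and mural cell genes was 148 to 156 CPM in the controls and 153 to 182 CPM in the mutators, with 4 of 6 above 0 and 1 of 6 called. Their part in the Igfbp3 values was not tested.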

How the data were processed

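Cerebral RNA of 7 mutator and 4 control mice was sequenced as paired 100-base reads from unstranded poly(A)+ libraries. Per the submitters' processing notes and the methods, the authors aligned reads to mm9 with TopHat2 2.0.6, counted them on Ensembl genes with HTSeq 0.5.3p9 and deposited raw counts per gene, and raw counts per exon bin for 10 mice. Bin counts leave out reads in no bin (20.6% to 23.4%). Tables of the authors' own DESeq and DEXSeq comparisons hold fold changes and p-values and were not used.

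The whole gene table was fitted in R 4.3.3 by the quasi-likelihood method of edgeR 4.0.16, after its default expression filter and TMM scaling, with robust dispersion and Benjamini-Hochberg adjustment over 17983 genes. The alternatives also used limma 3.58.1, DESeq2 1.42.0 and sva 3.50.0. The SE is the log2 fold change over the root of its F value. CPM are counts over TMM-scaled totals of tested genes. Genes of like level are those within 2-fold of the mean CPM of a gene. Bins were tested with diffSpliceDGE, with coefficients divided by ln 2. The steps were tested on simulated data. The shallower libraries hold few reads of low genes.

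The panel and lists were chosen with earlier results of these data known. Values of each control, with the lowest, median and highest of the mutators, were given for Trp53, Cdkn1a, Cdkn2a, Mdm2 and Bax and for panel genes with an unadjusted p under 0.05. Other panel genes were given by role group, and list genes when called or among the 2 of lowest p, with Fkbp5, Tsc22d3 and Per1 named after their values were seen. Lists of p53 target, apoptosis, senescence, DNA damage, cell type, immediate early and glucocorticoid genes were used, with 2 symbols matched through RefSeq synonyms. Positions came from GENCODE vM1, and promoter sequences from RefSeq on GRCm38.p6, which was not mixed with mm9.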

Additional observations from a re-analysis of the deposited data

Results flagged for a closer look

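In 92 groups of mice (46 genes in controls and in mutators), 4 held a mouse that stood apart from the rest of its group by Dixon's ratio, and about 1 in 20 groups does so by chance. Control mouse 246 was highest for Sesn1 at 71.1 CPM, with the next control at 63.2 and the lowest at 62.1 CPM, and the log2 fold change of Sesn1 was 0.18 without it (adjusted p = 0.260). Mutator mouse 207 was highest for Bbc3 at 6.81 CPM, with the next mutator at 4.604 and the lowest at 3.74 CPM, and the log2 fold change of Bbc3 was -0.30 without it (adjusted p = 0.116). The same mouse was lowest for Aifm1 at 19.7 CPM, with the next mutator at 22.5 and the highest at 24.0 CPM, and the log2 fold change of Aifm1 was -0.07 without it (adjusted p = 0.554). For the platelet gene Ppbp, control mouse 246 was highest of the controls at 0.182 CPM, which is 5 reads, with the next control at 0.0245 CPM. Mouse 249, the highest for Cdkn1a, did not stand apart by this ratio, and it was the highest of the 11 mice for 9 of the 39 tested genes (23.1%, beside 9.28% of all genes) and the lowest for 6 (15.4%, beside 10% of all genes).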

How the results depend on the processing

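Under the 20 alternatives for genes, of which WT/WT controls only and leaving out mouse 237 are the same fit, 0 genes of the panel were called in each, and the lowest adjusted p of a panel gene was 0.0592 (Mdm4, without control mouse 205). Of 741 log2 fold changes of panel genes under the 19 distinct fits, 717 kept their direction, and the 24 that did not belong to 9 genes whose main values were at most 0.043 from 0. Bcl2l1 turned to 0.0012 with upper-quartile normalization, 0.0025 with log2 total count as a covariate, 0.015 with 1 surrogate variable and 0.026 with WT/WT controls only. With WT/WT controls only, Trp53 was 0.0070, Btg1 -0.0089, Plk2 -0.0059, Bcl2l11 -0.019 and Casp8 -0.070. Without each mouse in turn the values ran from -0.052 to 0.0070 for Trp53, -0.011 to 0.077 for Btg1, -0.0059 to 0.056 for Plk2, -0.045 to 0.031 for Bcl2l1, -0.019 to 0.078 for Bcl2l11, -0.016 to 0.082 for Bid, -0.096 to 0.050 for Casp6, -0.071 to 0.126 for Casp8 and -0.081 to 0.017 for Cycs. The number of panel genes with an unadjusted p under 0.05 was 5, 1 with WT/WT controls only, and 1 to 7 without each mouse in turn. Over all genes tested these numbers were 2834, 1792 and 1792 to 3369. Of the other lists, 3 genes were called, 11 with DESeq2, and 2 to 8 without each mouse (8 without mutator 217, 6 without control 205, 5 without mutator 248). Bins of the panel called numbered 0, and 0 to 1 without each mouse, beside 48 and 5 to 189 of all bins. The cause was not tested for any of these. All genes called ranged from 50 to 622 beside 223, with 50 for the WT/WT controls only, 412, 100 and 93 without control 205, 239 or 246, and 622 with DESeq2. No analysis paired by litter was possible, because the labels used here do not give the litter of each mouse. They do not give the sequencing pool of each library either. Depth limits Cdkn2a and Eda2r most.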

Other observations

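The lists outside the p53 and apoptosis pathways give the state of the tissue beside the panel. The 8 immediate early genes, which neurons switch on within minutes of activity, had log2 fold changes below 0 in 8 of 8, with a median of -0.33 and 0 called in edgeR (1 lower at an unadjusted p under 0.05), and they summed to 553 to 978 CPM in the controls and 357 to 627 CPM in the mutators. Mouse 249, highest for Cdkn1a, had the lowest sum, 357 CPM. The 6 microglia markers were below 0 in 6 of 6 (median -0.19, 0 called, 4 lower at an unadjusted p under 0.05), at 202 to 255 CPM in the controls and 190 to 225 CPM in the mutators. Their lowest p-values were those of Cx3cr1 (log2 fold change -0.20, adjusted p = 0.104) and Csf1r (-0.17, adjusted p = 0.176). Among the immediate early genes they were those of Arc (-0.55, adjusted p = 0.234) and Egr2 (-0.83, adjusted p = 0.363), and among the glucocorticoid induced genes those of Sgk1 (0.82, adjusted p = 0.123) and Errfi1 (0.22, adjusted p = 0.233).

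Markers of oligodendrocytes, of their precursors and of astrocytes gave 0 calls, with medians of -0.21, -0.17 and -0.05. Below 0 were 4 of 6, 3 of 3 and 4 of 6 of them. The highest log2 fold change of an oligodendrocyte marker was 0.15. The summed level of the oligodendrocyte markers was 4854 to 5564 CPM in the controls and 4744 to 6667 CPM in the mutators. The pairs of lowest p were Mag (log2 fold change -0.31, adjusted p = 0.0558) and Mog (-0.26), Cspg4 (-0.17) and Gpr17 (-0.24), and Slc1a2 (-0.13) and Gfap (0.22). Markers of neurons and of the choroid plexus gave 0 calls as well, with medians of -0.03 and 0.01. The pairs there were Slc17a7 (-0.21, adjusted p = 0.0995) and Nefl (-0.06), and Folr1 (-0.30) and Ttr (0.14). Endothelial markers gave 0 calls of 8 (median 0.08), with 5 above and 3 below 0, and 3 higher and 1 lower at an unadjusted p under 0.05. The lowest p-values were those of 2 receptors for vascular growth factor, Flt1 at 66.2 to 73.6 CPM in the controls and 72.6 to 110.0 CPM in the mutators (log2 fold change 0.36, adjusted p = 0.0615) and Kdr at 9.63 to 13.1 and 14.6 to 30.5 CPM (0.84, adjusted p = 0.0705). The 6 genes of blood cells and platelets were above 0 in 6 of 6 with 1 called, Ppbp (adjusted p = 0.00483), at 0.0160 to 0.182 CPM in the controls and 0.224 to 1.23 CPM in the mutators, and Itga2b had the next lowest p (log2 fold change 0.44, adjusted p = 0.237).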
